A study of Mus musculus with 8 samples.

Results

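Serpins are a large family of protein-fold relatives, most of which inhibit serine proteases by offering a flexible reactive centre loop as bait and then trapping the enzyme that cuts it. The liver makes the secreted Serpins of blood plasma, among them inhibitors of neutrophil elastase, thrombin, plasmin and the first complement proteases, and a few members carry hormones or act as chaperones instead. The intracellular clade B Serpins protect cells, above all leukocytes and epithelia, from proteases of their own or of neighbouring cells. The letter after "Serpin" in a gene name gives the clade, so Serpina genes are the clade of alpha-1-antitrypsin and Serpinb genes the clade of ovalbumin.

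Members were the genes on the array whose name in the scanner files, over non-control spots, starts with Serpin, a clade letter and a number. This found 61 genes on 78 probes, of 34779 genes on 55681 probes in all. They comprised 24 genes of clade A, 27 of clade B, 1 each of clades C, D, G and H, and 2 each of clades E, F and I. A probe well above background on at least 4 of the 8 arrays represented 41 of the 61 genes, and these 41 were tested.

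RNA from mouse liver was hybridised to 8 1-colour (Cy3) Agilent expression arrays, 4 per group. Titles, treatment tag and design text name adenoviruses AdLeXis (LeXis is a long non-coding RNA) and AdGFP (green fluorescent protein, the control), and the comparison asks which liver transcripts differ when LeXis is supplied. All mice were bl6, 12 weeks old and on chow, with RNA taken on day 6, and all had received a virus, so no uninfected group was compared. The treatment text instead names a control vector and one with a short hairpin against Raly. Samples were grouped by title and treatment tag. No label states that the samples were separate animals, so p-values measure only how these 8 samples spread, which may be technical.

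All 8 arrays shared 1 slide and 1 scan date, with the AdGFP arrays in one column of the slide and the AdLeXis arrays in the other, so group and slide position cannot be told apart. Before scaling, AdLeXis arrays gave more signal, with a 75th percentile of intensity of 381 to 448 against 220 to 297 on AdGFP arrays, a mean log2 difference of 0.74. Of the spots, 62.6% to 67.7% were well above background on AdLeXis arrays and 58.9% to 62.5% on AdGFP arrays, and none was saturated. Levels below are log2 signals after scaling each array on that percentile, differences are AdLeXis minus AdGFP on this log2 scale, and precision is limited by the 4 arrays per group. Positions in parentheses after a gene are those of its probe in mm9. Signals of different probes do not rank genes by abundance. The tissue label was borne out by hepatocyte markers: all 7 on the array (albumin, Alb, among them) were well measured, with a mean level of 16.77 to 16.90 on AdGFP arrays and 16.32 to 16.53 on AdLeXis arrays.

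Of the 41 Serpin genes tested, 15 fell and 2 rose with AdLeXis, and 24 did not pass the test (limma, Benjamini-Hochberg adjustment over 23893 genes, threshold 0.05). Over all 23893 genes tested, 17.5% were called, 8.74% higher and 8.8% lower. The lower Serpins were the alpha-1-antitrypsin genes Serpina1a, Serpina1c, Serpina1d and Serpina1e; the antichymotrypsin-related Serpina3f, Serpina3g, Serpina3i and Serpina3k; Serpina10, Serpinc1, Serpinf2 and Serping1 of coagulation, fibrinolysis and complement; and the intracellular Serpinb8, Serpinb9 and Serpinb10. Under quantile normalization Serpina1a and Serpinc1 turned just above 0. After normexp correction Serpina1a did too, and Serpina1e turned to 0.30 and was called higher. Serpinb1a and Serpinb9e were the higher ones, and Serpinb9e entered the test only through the AdLeXis arrays. The median difference over the 41 genes was -0.36, with 32 values below 0 and 9 above, beside a median of -0.0022 over all genes tested. The AdGFP and AdLeXis arrays did not overlap for 18 of the 41, 16 lower and 2 higher, against 24.7% of all genes in either direction.

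By clade, 9 of 22 tested clade A genes were lower and 0 higher, with a median difference of -0.48. By limma at an unadjusted p under 0.05, 11 were lower and 0 higher, where 3818 of all 23893 genes were lower and 3846 higher. Later counts at an unadjusted p under 0.05 stand beside the same counts over all genes. Clade B had 3 lower and 2 higher of 10 tested, with a median of -0.25. The single genes of clades C and G (Serpinc1 and Serping1) were lower, and so was 1 of the 2 clade F genes (Serpinf2). No tested gene of clades D, E, H and I passed the test.

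The counts differed by signal level. Among the 8 Serpins with a mean log2 signal over 16, 7 were lower and 1 did not pass, with a median of -0.53. Of all 400 genes tested at that level, 39.3% were lower and 0.75% higher, with a median of -0.23. Between 8 and 16, 6 Serpins of 21 were lower and 1 higher, where 10.5% of all genes were lower and 10.4% higher. Under 8, 2 of 12 were lower and 1 higher, where 6.29% of all genes were lower and 7.51% higher. At the very top, over 18, all 26 genes tested were lower (median -0.55), and the 3 Serpins there (Serpina1a, Serpina1c and Serpina1e, median -0.57) sat within that group. These brightest values also moved with the scaling between arrays. Under quantile normalization the 26 genes had a median of -0.015 and none passed the test (limma, also 0 of the 3 Serpins), and under cyclic loess 21 were lower with a median of -0.39.

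**Figure D1:**
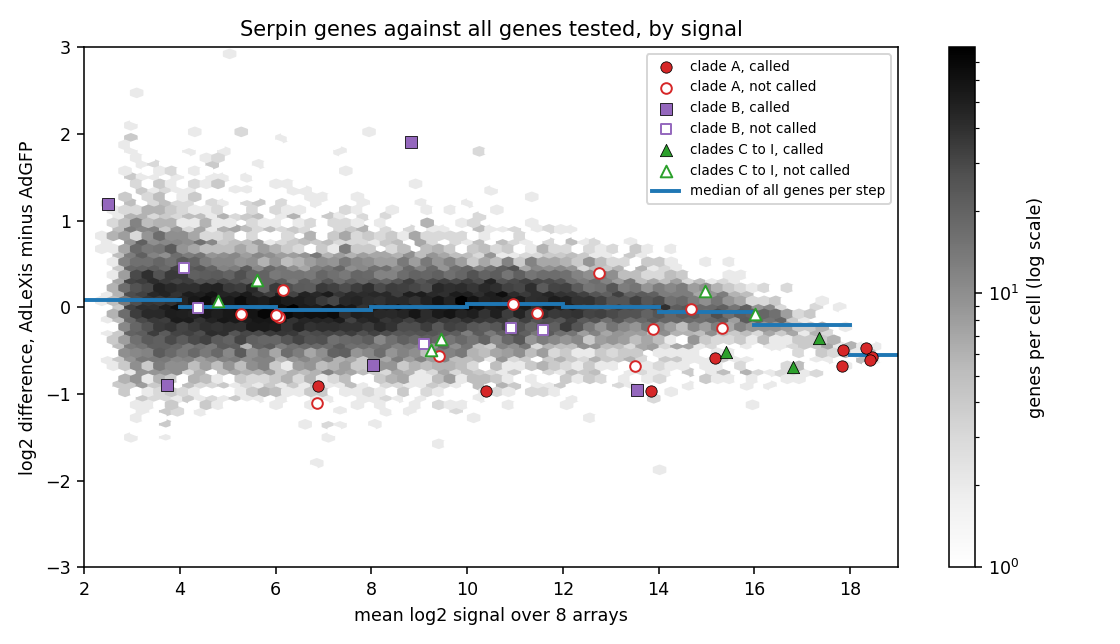
Each Serpin gene tested (symbols by clade, filled where called) is placed by mean log2 signal over the 8 arrays and log2 difference AdLeXis minus AdGFP, over all 23893 genes as grey cells whose shade is a count on a log scale. The blue lines, medians of all genes per signal step, fall to -0.20 and -0.55 in the top 2 steps, where 7 called Serpins lie, 3 of them losing their sign under other scalings (Serpina1a, Serpina1e, Serpinc1). Serpinb1a stands alone at 1.91.

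Serpina1 genes encode alpha-1-antitrypsin, the main plasma inhibitor of neutrophil elastase, which the mouse makes from several near-identical genes side by side on chromosome 12. Because the copies are so alike, where their probes differ is shown first. A probe of Serpina1a (bases 33 to 60, chr12:105091979-105092038, minus strand, mm9) and one of Serpina1e (bases 1 to 28, chr12:105185290-105185349, minus strand) both cover the stretch coding for the reactive centre loop, the part that decides which protease is bound. Capitals mark the 7 of 28 bases at which they differ:
Serpina1a loop probe: TGgTtCCtAtgtctatgccccctatcCt
Serpina1e loop probe: GCgGtTTtTtgtctatgccccctatcTt
The brightest probe of Serpina1c (bases 30 to 59) and that of Serpina1e (bases 31 to 60) also overlap, over 59 bases of which 49 match. The 30-base end that holds 9 of the 10 mismatches, in capitals, is shown:
Serpina1c probe: tgaattgggttccttCcATtAaaCACAggC
Serpina1e probe: tgaattgggttccttTcCAtTaaACACggG
The Serpina1c and Serpina1a probes matched at 50 of 51 overlapping bases. RefSeq accessions listed for the Serpina1c probe belong to Serpina1a, Serpina1b and Serpina1c, and those for the Serpina1d probe to Serpina1b and Serpina1d, so these readings may pool copies.

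All 4 of these genes fell by similar amounts under the 75th percentile scaling, though under other scalings the sign turned for Serpina1a (quantile, normexp) and Serpina1e (normexp). For Serpina1c (chr12:105133165-105133224), the AdGFP arrays read 18.84, 18.67, 18.78 and 18.70 and the AdLeXis arrays 18.34, 18.13, 18.18 and 18.06, a difference of -0.57 (SE 0.088, limma adjusted p = 0.00474). Serpina1e (chr12:105185172-105185231) read 18.69, 18.71, 18.67 and 18.85 on the AdGFP arrays and 18.21, 18.08, 18.10 and 18.09 on the AdLeXis arrays, a difference of -0.61 (SE 0.078, limma adjusted p = 0.00233). Every AdLeXis array of both genes lay below every AdGFP array, and the copies moved within a narrow band. Serpina1a (chr12:105091819-105091878) was at 18.62, 18.52, 18.60 and 18.58 with AdGFP and at 18.25, 18.08, 18.05 and 18.06 with AdLeXis, which gave -0.47 (SE 0.078, limma adjusted p = 0.00624). With Serpina1d (chr12:105002930-105002989), the AdGFP arrays read 18.09, 17.99, 18.20 and 18.13 and the AdLeXis arrays 17.68, 17.50, 17.66 and 17.59, giving -0.50 (SE 0.083, limma adjusted p = 0.00627). Here too the groups did not overlap. The loop probes of Serpina1a and Serpina1e, which differ at 7 of their 28 overlapping bases, gave -0.51 for each. How well they separate the copies on the array was not tested. A second Serpina1d probe, listed for that gene alone, gave -0.48.

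The fifth tested copy, Serpina1f, was not called. It read 5.10, 5.24, 5.29 and 5.63 on the AdGFP arrays and 5.38, 4.95, 5.48 and 5.13 on the AdLeXis arrays, a difference of -0.079 (SE 0.15, limma adjusted p = 0.770) with overlapping groups and a 95% interval of -0.43 to 0.27. The fall of the 4 bright copies depends on the scaling. Under quantile normalization Serpina1c was -0.054, Serpina1e -0.087 and Serpina1d -0.065, Serpina1a turned to 0.055, and none of the 4 passed the test. After normexp background correction with quantile normalization Serpina1e turned to 0.30 and passed the test in that direction. Cyclic loess and median scaling kept all 4 calls. Relative to the median of all genes in its signal step, Serpina1c was -0.022, Serpina1e -0.065, Serpina1a 0.078 and Serpina1d -0.29. Serpina1d, in the step from 16 to 18, was the farthest of the 4 from the median of its step. Its mean signal of 17.86 was near the upper edge of that step. The median there was -0.20, against -0.55 in the next step.

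The Serpina3 genes are the mouse expansion of a single human gene, alpha-1-antichymotrypsin, and lie in a row on chromosome 12. Their reactive loops have diverged, so members inhibit different proteases, from trypsin-like enzymes to granzymes and lysosomal cathepsins, and some act inside cells. Of 11 members on the array 9 were tested, and 4 fell (Serpina3f, Serpina3g, Serpina3i and Serpina3k) and 5 did not pass the test. Probes for Serpina3i (bases 1 to 57, chr12:105506705-105506764, plus strand, mm9) and Serpina3h (bases 4 to 60, chr12:105491733-105491792, plus strand) cover the same stretch at the start of the loop and differ at 6 of 57 bases, in capitals, which shows how little sequence separates neighbours:
Serpina3i loop probe: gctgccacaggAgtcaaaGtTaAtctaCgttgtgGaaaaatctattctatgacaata
Serpina3h loop probe: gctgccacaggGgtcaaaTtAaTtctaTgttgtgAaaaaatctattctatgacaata
This Serpina3i probe, the dimmer of its 2, gave a difference of -0.38 that did not pass the test over probes (limma adjusted p = 0.392).

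Serpina3g (also Spi2A) works inside cells, where it inhibits lysosomal cathepsins, and is known from T cells and macrophages. It (chr12:105480045-105480104) read 14.76, 14.52, 14.10 and 13.89 on the AdGFP arrays and 13.35, 13.42, 13.51 and 13.15 on the AdLeXis arrays, a difference of -0.96 (SE 0.19, limma adjusted p = 0.0124). Its AdGFP arrays spread widely, yet the lowest of them stood above the highest AdLeXis array. For Serpina3f (chr12:105458989-105459048), a close relative, the AdGFP arrays read 11.32, 11.15, 10.62 and 10.44 and the AdLeXis arrays 9.86, 9.85, 10.14 and 9.82, a difference of -0.96 (SE 0.20, limma adjusted p = 0.0140). Serpina3i (chr12:105504738-105504797) was at 7.46, 7.46, 7.34 and 7.09 with AdGFP and at 6.39, 6.27, 6.89 and 6.18 with AdLeXis, which gave -0.90 (SE 0.17, limma adjusted p = 0.00934). In both genes the groups were apart. Serpina3g and Serpina3f shared the order of their AdGFP arrays, replicate 1 highest and replicate 4 lowest.

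A second probe named Serpina3f, whose RefSeq accessions belong to both Serpina3f and Serpina3h, went the other way at 0.24 and did not pass the test (limma adjusted p over probes = 0.541). With the mean of both probes in place of the brighter one, Serpina3f was -0.36 and was no longer called. The calls of Serpina3g and Serpina3i held under all 18 alternatives, with values between -1.10 and -0.81 for Serpina3g and between -1.06 and -0.55 for Serpina3i. The 4 scaling alternatives gave Serpina3f values from -1.19 to -0.97.

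Serpina3k (contrapsin), a plasma inhibitor of trypsin-like proteases made by hepatocytes, also fell. It (chr12:105583645-105583704) read 18.05, 18.18, 18.32 and 18.10 on the AdGFP arrays and 17.41, 17.46, 17.72 and 17.37 on the AdLeXis arrays, a difference of -0.67 (SE 0.11, limma adjusted p = 0.00490) with no overlap. Like the bright Serpina1 genes it lost its call under quantile normalization (-0.21). It lay -0.47 from the median of its signal step, 16 to 18. Its mean signal of 17.82 was near the upper edge of that step, and the next step had a median of -0.55.

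The remaining Serpina3 genes did not pass the test. Serpina3n, an acute phase Serpin that inhibits granzyme B and neutrophil proteases, was the one member with a positive difference: the AdGFP arrays read 12.48, 12.24, 12.85 and 12.64 and the AdLeXis arrays 12.85, 13.39, 12.98 and 12.56, giving 0.39 (SE 0.19, limma adjusted p = 0.205) with a 95% interval of -0.052 to 0.84. Serpina3h read 9.22, 9.65, 10.05 and 9.84 on the AdGFP arrays and 8.74, 8.98, 9.62 and 9.17 on the AdLeXis arrays, a difference of -0.56 (SE 0.23, limma adjusted p = 0.129). The groups overlapped for both. Serpina3m was at 15.47, 15.28, 15.54 and 15.49 with AdGFP and at 15.10, 15.53, 15.44 and 14.75 with AdLeXis, so the difference was -0.24 (SE 0.17, limma adjusted p = 0.383), and AdLeXis replicate 4 was its lowest array. For Serpina3c, the AdGFP arrays read 11.49, 11.25, 11.53 and 11.70 and the AdLeXis arrays 11.46, 11.66, 11.68 and 10.87, a difference of -0.071 (SE 0.19, limma adjusted p = 0.840). AdLeXis replicate 4 was again the low array, and without it the sign turned to 0.11. Serpina3b read 6.15, 6.08, 6.02 and 5.96 on the AdGFP arrays and 6.01, 5.90, 6.06 and 5.89 on the AdLeXis arrays, which came to -0.087 (SE 0.081, limma adjusted p = 0.512), with little spread in either group.

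**Figure D2:**
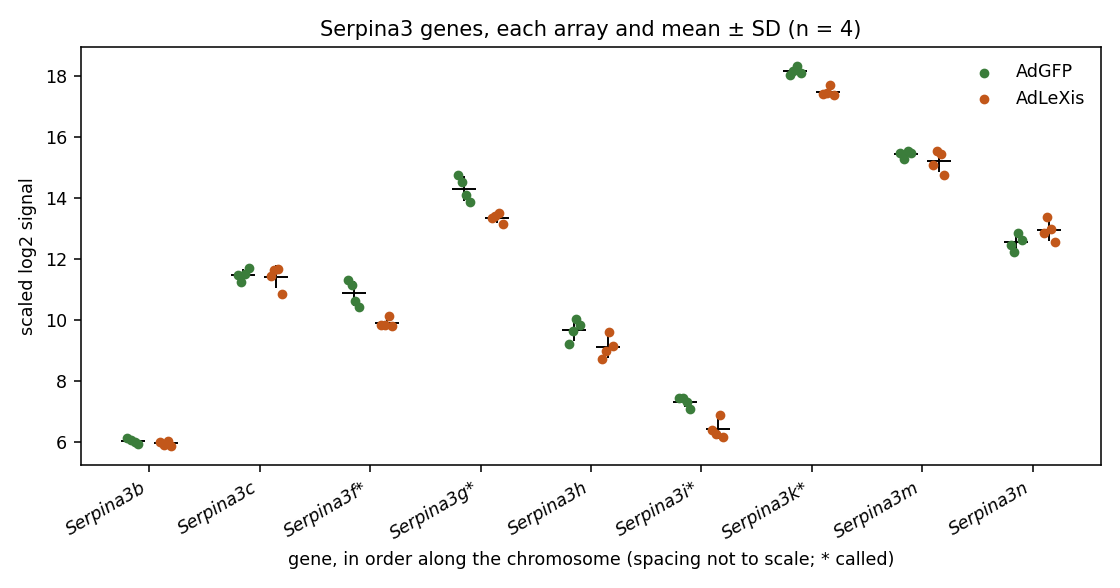
Scaled log2 signal of the 9 tested Serpina3 genes on each array (points, 4 AdGFP and 4 AdLeXis per gene) with mean and SD (bars), in the order of their probes along the chromosome; an asterisk marks a called gene. Serpina3f, Serpina3g, Serpina3i and Serpina3k are apart between groups, while Serpina3n has its AdLeXis mean 0.39 above AdGFP with overlapping arrays.

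Serpina3f, Serpina3g and Serpina3i fell by like amounts on their brightest probes under the 75th percentile scaling, though their values were -1.19, -0.88 and -0.55 under normexp with quantile normalization, and the second probes of Serpina3f and Serpina3i did not pass. The 250 bases before their start sites are shown beside those of Serpina3n, which did not pass the test (RefSeq, GRCm38.p6). Capitals mark TTCNNNGAA, the gamma-activated site bound by STAT factors, a palindrome that reads the same on both strands:
Serpina3f promoter, chr12:104214294-104214543, plus strand: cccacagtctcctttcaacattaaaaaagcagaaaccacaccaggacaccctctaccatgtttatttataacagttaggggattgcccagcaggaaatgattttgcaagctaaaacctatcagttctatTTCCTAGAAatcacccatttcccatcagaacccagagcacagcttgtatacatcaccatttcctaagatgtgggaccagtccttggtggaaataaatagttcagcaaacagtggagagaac
Serpina3g promoter, chr12:104235897-104236146, plus strand: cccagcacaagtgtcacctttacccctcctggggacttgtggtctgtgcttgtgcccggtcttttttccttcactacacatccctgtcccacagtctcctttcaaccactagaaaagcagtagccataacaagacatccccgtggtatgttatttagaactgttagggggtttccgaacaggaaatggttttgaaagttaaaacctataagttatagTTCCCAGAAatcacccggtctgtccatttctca
Serpina3i promoter, chr12:104262872-104263121, plus strand: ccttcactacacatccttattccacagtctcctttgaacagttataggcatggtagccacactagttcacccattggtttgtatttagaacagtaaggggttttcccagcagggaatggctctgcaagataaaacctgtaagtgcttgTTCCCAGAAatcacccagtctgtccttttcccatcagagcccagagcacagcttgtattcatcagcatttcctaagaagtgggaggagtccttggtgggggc
Serpina3n promoter, chr12:104406458-104406707, plus strand: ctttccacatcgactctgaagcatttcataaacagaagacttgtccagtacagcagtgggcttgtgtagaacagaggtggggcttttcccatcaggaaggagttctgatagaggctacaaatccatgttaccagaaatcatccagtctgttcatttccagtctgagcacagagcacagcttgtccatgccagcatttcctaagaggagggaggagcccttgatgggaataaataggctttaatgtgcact
The element began at base -121 from the start site of Serpina3f (-210 from its second start site), at -33 of Serpina3g and at -102 of Serpina3i. No match lay in these windows of Serpina3n, Serpina3b or Serpina3c. Serpina3k, which was called, and Serpina3h and Serpina3m, which were not, were not analysed here for this motif. In all, 6 of 31 tested Serpins with a promoter in the table (19.4%) held a match, also Serpina11, Serpina1f and Serpinb6a, none of which was called, against 2306 of 32851 promoters (7.02%). The units differ: a Serpin gene counted if any of its promoters held a match, while the 7.02% counts single promoters. Other motifs were searched in the same way. The core of the interferon-stimulated response element was held by 6.45% of the 31 Serpins (Serpinb6a and Serpinb9), against 2.98% of promoters. A general core promoter box was held by 16.1%, against 12.4% of promoters. The gamma-activated site was chosen after the values were seen. The promoters of Serpina3f, Serpina3g and Serpina3i are also related, 80.4% to 82.6% identical over their aligned bases, so their matches are not independent.

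The other clade A genes hold coagulation regulators and hormone carriers, and 1 of these 8 fell. Serpina10, the protein Z-dependent inhibitor of coagulation factor Xa (chr12:104854887-104854946), read 15.41, 15.51, 15.70 and 15.27 on the AdGFP arrays and 15.02, 14.86, 14.96 and 14.72 on the AdLeXis arrays, a difference of -0.58 (SE 0.11, limma adjusted p = 0.0118). The groups did not overlap, and its second probe gave -0.82 (limma adjusted p over probes = 0.00762). It kept its call in all alternatives except normexp with quantile normalization (-0.17).

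None of the 7 hormone carriers and remaining clade A genes passed the test (limma, 1 at an unadjusted p under 0.05). Serpina6 (corticosteroid-binding globulin) differed by -0.25 (SE 0.18, limma adjusted p = 0.381) and Serpina7 (thyroxine-binding globulin, on chromosome X) by 0.036 (SE 0.19, limma adjusted p = 0.924). Serpina5, the protein C inhibitor, differed by 0.20 (SE 0.27, limma adjusted p = 0.657), and Serpina12, the adipokine vaspin, by -0.11 (SE 0.33, limma adjusted p = 0.862). Serpina11 was at -0.017 (SE 0.12, limma adjusted p = 0.945). Much wider spread marked the remaining pair. Serpina9, known from germinal centre B cells, had an estimate of -1.10 (SE 0.44, limma adjusted p = 0.126), as large as that of the called Serpina3 genes but with SDs of 0.76 in AdGFP and 0.71 in AdLeXis (n = 4 each). The pseudogene Serpina4-ps1 was at -0.68 (SE 0.49, limma adjusted p = 0.386), with SDs of 0.88 and 0.73.

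Serpins that restrain coagulation, fibrinolysis and complement came next, and 3 of 4 in these roles outside clades A and E fell. Serping1 is C1 inhibitor, which blocks the complement proteases C1r, C1s and the MASPs as well as plasma kallikrein. It (chr2:84605663-84605722) read 17.26, 17.01, 17.25 and 17.12 on the AdGFP arrays and 16.42, 16.39, 16.58 and 16.48 on the AdLeXis arrays, a difference of -0.69 (SE 0.090, limma adjusted p = 0.00244). All AdLeXis arrays were below all AdGFP arrays, a second probe gave -0.65 (limma adjusted p over probes = 0.0128), and the call held under all 18 alternatives with values from -0.78 to -0.30. Serpinf2, alpha-2-antiplasmin, the direct plasmin inhibitor (chr11:75245252-75245311), was at 15.72, 15.47, 15.75 and 15.69 with AdGFP and at 15.25, 15.21, 15.24 and 14.86 with AdLeXis, which gave -0.51 (SE 0.12, limma adjusted p = 0.0196). AdLeXis replicate 4 was its low array. The call was lost without AdGFP replicate 1 or AdGFP replicate 3, and under normexp with quantile normalization (-0.32).

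For Serpinc1, antithrombin, the heparin-activated inhibitor of thrombin and factor Xa (chr1:162932565-162932624), the AdGFP arrays read 17.47, 17.52, 17.60 and 17.56 and the AdLeXis arrays 17.22, 17.19, 17.22 and 17.10, a difference of -0.36 (SE 0.073, limma adjusted p = 0.0136). The groups were apart with SDs of 0.055 and 0.056 (n = 4 each), but the difference was 0.0013 under quantile normalization and -0.23 under cyclic loess, neither of which passed the test. Serpind1, heparin cofactor II, a thrombin inhibitor, read 14.9982, 14.89, 15.10 and 14.53 on the AdGFP arrays and 14.87, 15.16, 15.28 and 14.96 on the AdLeXis arrays. Its difference of 0.19 (SE 0.15, limma adjusted p = 0.417) did not pass, the groups overlapped, and the 95% interval was -0.14 to 0.52. Under normexp with quantile normalization it was called higher at 0.40.

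Of 13 tested coagulation and fibrinolysis proteases that Serpins bind, 3 fell and 10 did not pass, with a median of -0.080. The 3 were the urokinase gene Plau at -1.05 (SE 0.22, limma adjusted p = 0.0138), prothrombin F2 at -0.34 (SE 0.082, limma adjusted p = 0.0258) and factor XI, F11, at -0.44 (SE 0.12, limma adjusted p = 0.0413). F2 was not called under quantile normalization (-0.099) or cyclic loess (-0.23) and turned to 0.21 under normexp with quantile normalization, where F11 (-0.15) was not called either and 1 of the 13 was lower. Beside this and the following list counts stand the 8.8% of all genes that were lower, and the 39.3% of those with a signal over 16. Of 6 tested complement proteases bound by C1 inhibitor, 3 fell and 3 did not pass, with a median of -0.20. Masp1, which starts the lectin pathway, had the largest change of these at -1.78 (SE 0.18, limma adjusted p = 0.00103). C1rb was at -0.63 (SE 0.16, limma adjusted p = 0.0318) and C1ra at -0.38 (SE 0.075, limma adjusted p = 0.0123), while both C1s copies tested, C1s1 and C1s2, were at -0.014 and 0.056 and did not pass. Under normexp with quantile normalization 2 of the 6 were lower and 2 higher, with a median of 0.049. There C1s1 (0.32) and C1s2 (0.26) were called higher, and C1ra turned to 0.098. Among 9 cofactors, partners and receptors, 3 fell and 1 rose, with a median of -0.16. Quantile normalization, cyclic loess and normexp each left 2 lower and 1 higher, with medians of -0.073, -0.11 and 0.037. Angiotensinogen, Agt, a Serpin by fold under another name, rose by 0.46 (SE 0.083, limma adjusted p = 0.00878). The endothelial protein C receptor Procr was at -0.65 (SE 0.088, limma adjusted p = 0.00288) and the urokinase receptor Plaur at -0.53 (SE 0.13, limma adjusted p = 0.0248).

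Clade B held both Serpins that rose. Serpinb1a encodes an intracellular inhibitor of the neutrophil proteases elastase, cathepsin G and proteinase 3. It (chr13:32934693-32934752) read 7.88, 7.85, 8.02 and 7.69 on the AdGFP arrays and 9.59, 10.00, 9.43 and 10.08 on the AdLeXis arrays, a 3.77-fold higher signal (log2 difference 1.91 (SE 0.16, limma adjusted p = 5.08e-04), 95% interval 1.55 to 2.28). The lowest AdLeXis array stood well above the highest AdGFP array. The call held under all 18 alternatives, with values from 1.52 to 2.03. Its paralogues Serpinb1b and Serpinb1c were not above background on any array.

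Of 5 neutrophil markers tested, 0 passed the test (limma, also 0 at an unadjusted p under 0.05). Their median difference was -0.19, and their mean level was 8.14 to 8.40 on AdGFP arrays and 7.86 to 8.37 on AdLeXis arrays. Of the target proteases, Elane was at -0.19 (SE 0.10, limma adjusted p = 0.231), Ctsg at 0.36 (SE 0.22, limma adjusted p = 0.297) and Prtn3 at -0.0029 (SE 0.34, limma adjusted p = 0.997), none of which passed.

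Serpinb9e, a relative of the granzyme B inhibitor Serpinb9, was well above background on all 4 AdLeXis arrays and on 0 AdGFP arrays, so it entered the test only through the group in which it is high. Its signal (chr13:33351856-33351915) read 1.23, 2.37, 2.24 and 1.73 on the AdGFP arrays and 3.23, 2.65, 2.98 and 3.47 on the AdLeXis arrays. With the lowest signal well above background set as a floor for AdGFP, its mean was 1.29-fold higher with AdLeXis under the scaling used here. This fold is not a minimum over scalings: the measured log2 difference was 0.076 under normexp with quantile normalization. The floor of AdGFP replicate 1, at 2.99, was above the readings of AdLeXis replicates 2 and 3. The test was not of this fold but of the measured log2 difference of 1.19 (limma adjusted p = 0.0212). That difference rests on AdGFP readings that were not well above background. The call was lost in 6 of 17 alternatives, among them quantile and normexp scaling and the fits without AdGFP replicate 4 or AdLeXis replicate 4. A second Serpinb9e probe was well above background on 0 arrays of either group and showed no rise. Its mean was 1.17 with AdGFP and 1.15 with AdLeXis. The Serpinb9f probe, whose RefSeq accessions belong to both Serpinb9e and Serpinb9f, was at 0.46 (SE 0.38, limma adjusted p = 0.452) and did not pass. This Serpinb9f probe had 1 high array (AdLeXis replicate 1).

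The 3 clade B genes that fell are active in leukocytes or widely. Serpinb9 protects cytotoxic lymphocytes and other cells from granzyme B. It (chr13:33109767-33109824) was at 8.02, 8.37, 8.44 and 8.61 with AdGFP and at 7.74, 7.97, 7.56 and 7.51 with AdLeXis, a difference of -0.67 (SE 0.15, limma adjusted p = 0.0199) with no overlap between groups. Serpinb8, an inhibitor of furin-like proteases (chr1:109504865-109504924), read 13.91, 13.79, 14.47 and 13.93 on the AdGFP arrays and 12.73, 13.49, 13.51 and 12.54 on the AdLeXis arrays, which gave -0.96 (SE 0.26, limma adjusted p = 0.0367). Its AdLeXis arrays fell into a lower and a higher pair, all below AdGFP. For Serpinb10, known from blood-forming cells (chr1:109443390-109443449), the AdGFP arrays read 4.22, 3.62, 4.72 and 4.17 and the AdLeXis arrays 2.9980, 3.46, 3.58 and 3.09, a difference of -0.90 (SE 0.23, limma adjusted p = 0.0327). These calls depended on the setting. After normexp with quantile normalization Serpinb8 was -0.51, Serpinb10 -0.21 and Serpinb9 -0.40, none of them called. Serpinb8 and Serpinb10 each lost theirs in 8 of 18 alternatives, 6 of them the removal of single arrays (any AdGFP array, AdLeXis replicate 1 or 4 for Serpinb8, and AdGFP replicate 1, 3 or 4 or AdLeXis replicate 1, 2 or 4 for Serpinb10), and Serpinb9 in 5, among them the removal of AdGFP replicate 3, AdLeXis replicate 3 or AdLeXis replicate 4.

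No gene of the Serpinb6 group, which includes inhibitors of trypsin-like proteases, passed the test (limma, 2 of 3 at an unadjusted p under 0.05), and all 3 tested had negative differences. Serpinb6b just missed the threshold at -0.43 (SE 0.13, limma adjusted p = 0.0502) with groups that did not overlap, and 7 of 18 alternatives called it lower, the 4 scalings and the fit without AdLeXis replicate 2 included. Serpinb6a was at -0.26 (SE 0.087, limma adjusted p = 0.0715) and Serpinb6c at -0.24 (SE 0.12, limma adjusted p = 0.197). A Serpinb6c probe matched the Serpinb6a probe at 55 of 59 overlapping bases. Serpinb3c, related to the human squamous cell carcinoma antigens, was at -0.011 (SE 0.15, limma adjusted p = 0.972). Its probe was spotted 10 times per array, and the SD between spots of 1 array ran from 0.587 to 0.941, which shows the technical spread of a dim probe.

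Genes of cytotoxic lymphocytes also differed between the groups. All 10 T cell and natural killer markers fell, with a median of -1.04, and all 10 were lower under each of the 4 scaling alternatives. Their mean level was 9.30 to 9.43 on AdGFP arrays and 8.26 to 8.59 on AdLeXis arrays, and their log2 summed level 13.41 to 13.52 against 12.45 to 12.64. The natural killer granule gene Nkg7 was at -1.09 (SE 0.10, limma adjusted p = 6.22e-04), the interleukin receptor chain Il2rb at -1.21 (SE 0.11, limma adjusted p = 7.15e-04) and perforin, Prf1, at -1.04 (SE 0.10, limma adjusted p = 9.07e-04). Of 9 Kupffer and macrophage markers 3 fell and 6 did not pass, with a median of -0.48, a mean level of 11.30 to 11.82 against 10.84 to 11.21 and a summed level of 16.27 to 16.67 against 15.92 to 16.34. Median scaling called 6 of these 9 lower, and normexp with quantile normalization 4 lower and 1 higher. Of 13 tested granule and lysosomal proteases, 5 fell and 8 did not pass, with a median of -0.39. The lower ones included Gzmk at -1.32 (SE 0.19, limma adjusted p = 0.00352), Ctsc at -0.60 (SE 0.11, limma adjusted p = 0.0104) and Ctss at -0.72 (SE 0.14, limma adjusted p = 0.0110). Of 8 stellate and fibroblast markers 2 fell (median -0.35) and of 5 cholangiocyte markers 1 fell (median -0.26), while 0 of 7 endothelial markers passed (limma, 0 at an unadjusted p under 0.05, median 0.038, or -0.045 under median scaling). In bulk tissue, fewer cells of a type and less RNA per cell cannot be told apart. The part of these cells in the values of Serpina3f, Serpina3g, Serpina3i, Serpinb9 and Serpinb10 was not tested.

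The remaining clades act at the cell surface, in the matrix or inside the secretory pathway, and none of these 5 tested genes passed (limma, 1 at an unadjusted p under 0.05). Serpine2, protease nexin 1, was at 0.32 (SE 0.33, limma adjusted p = 0.554) with overlapping groups. Serpinf1, the non-inhibitory pigment epithelium-derived factor, was at 15.98, 16.14, 16.10 and 16.0005 with AdGFP and at 15.87, 15.97, 16.21 and 15.85 with AdLeXis, which came to -0.078 (SE 0.10, limma adjusted p = 0.643). It was the only Serpin over a signal of 16 that was not called. Serpinh1 is Hsp47, the collagen chaperone of the endoplasmic reticulum. For it the AdGFP arrays read 9.56, 9.51, 9.38 and 9.50 and the AdLeXis arrays 8.77, 9.13, 8.68 and 9.42, a difference of -0.49 (SE 0.16, limma adjusted p = 0.0700), with AdLeXis replicate 4 the array closest to AdGFP. It was called lower without that array (-0.63), under normexp with quantile normalization (-0.63) and with the variance trend (-0.49). Of 6 tested collagen genes whose proteins fold with Hsp47, 0 were called (limma, 2 at an unadjusted p under 0.05), with a median of -0.37. Serpini1, neuroserpin, read 4.67, 4.59, 4.94 and 4.86 on the AdGFP arrays and 4.30, 4.93, 4.78 and 5.33 on the AdLeXis arrays, a difference of 0.068 (SE 0.20, limma adjusted p = 0.858).

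Other inhibitors and acute phase genes give the liver context. Of 17 tested plasma protease inhibitors outside the family, 6 fell and 11 did not pass, with a median of -0.29, among them fetuin-A (Ahsg, -0.58 (SE 0.086, limma adjusted p = 0.00406)), Ambp at -0.47 (SE 0.081, limma adjusted p = 0.00719) and pregnancy zone protein (Pzp, -0.44 (SE 0.080, limma adjusted p = 0.00850)). Under quantile normalization 1 of the 17 was called, and under normexp with quantile normalization 3 were lower and 1 higher. Of 17 acute phase genes, 7 fell and 1 rose, with a median of -0.22. Saa3 rose at 1.47 (SE 0.20, limma adjusted p = 0.00313), while Orm1 was at -0.80 (SE 0.12, limma adjusted p = 0.00474) and haptoglobin, Hp, at -0.51 (SE 0.088, limma adjusted p = 0.00716). Under quantile normalization 4 fell and 1 rose, with a median of -0.011. Hepatocyte markers showed the same dependence, with 5 of 7 lower and a median of -0.37 against 1 lower and -0.011 under quantile normalization. Their log2 summed level was 20.30 to 20.37 on AdGFP arrays and 19.72 to 19.91 on AdLeXis arrays, and their part in the values of the bright Serpins was not tested.

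**Figure D3:**
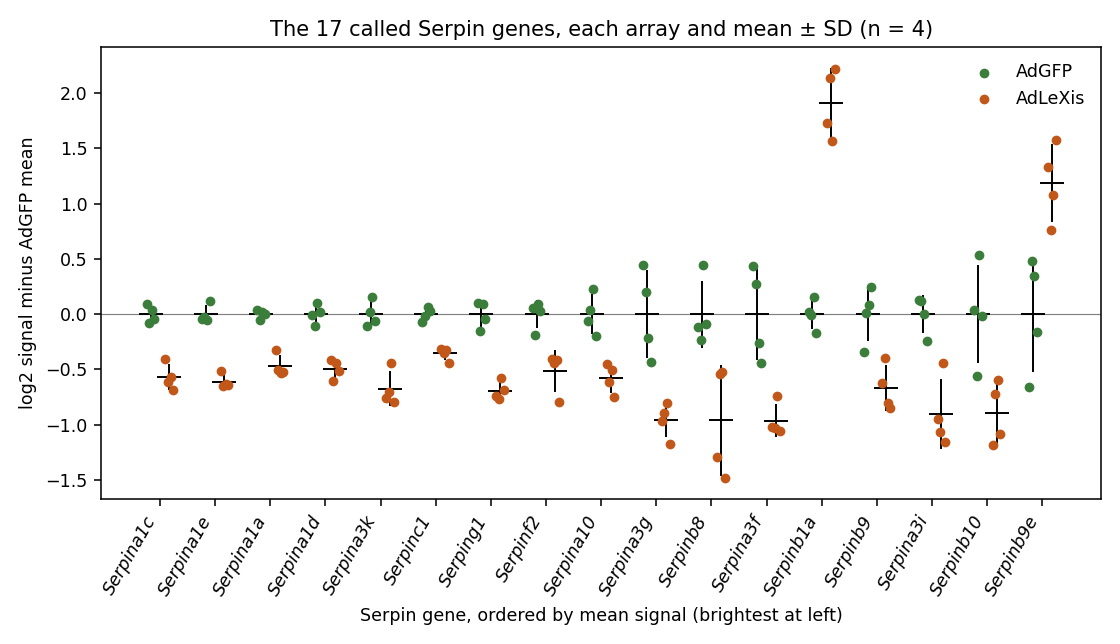
Log2 signal minus the AdGFP mean for the 17 called Serpins on each array (points, 4 per group), with mean and SD as bars, brightest gene at the left. Bright genes sit in narrow bands 0.36 to 0.69 below AdGFP, of which Serpina1a, Serpina1e and Serpinc1 turn sign under other scalings, dimmer genes spread more widely, and Serpinb1a and Serpinb9e lie above.

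The 17 calls held to differing extents across settings. Serpina3g, Serpina3i, Serpinb1a and Serping1 were called in the same direction under all 18 alternatives. Under quantile normalization 11 Serpins were lower and 1 higher with a median of -0.11, and under normexp with quantile normalization 6 were lower and 3 higher (Serpina1e, Serpinb1a and Serpind1) with a median of -0.16. The genes that lost their call under quantile normalization were Serpina1a, Serpina1c, Serpina1d, Serpina1e, Serpina3k and Serpinc1, all with a signal over 16, and the dim Serpinb9e. Median scaling moved the split over all genes to 1151 higher and 2675 lower, from 2088 and 2103.

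**Figure D4:**
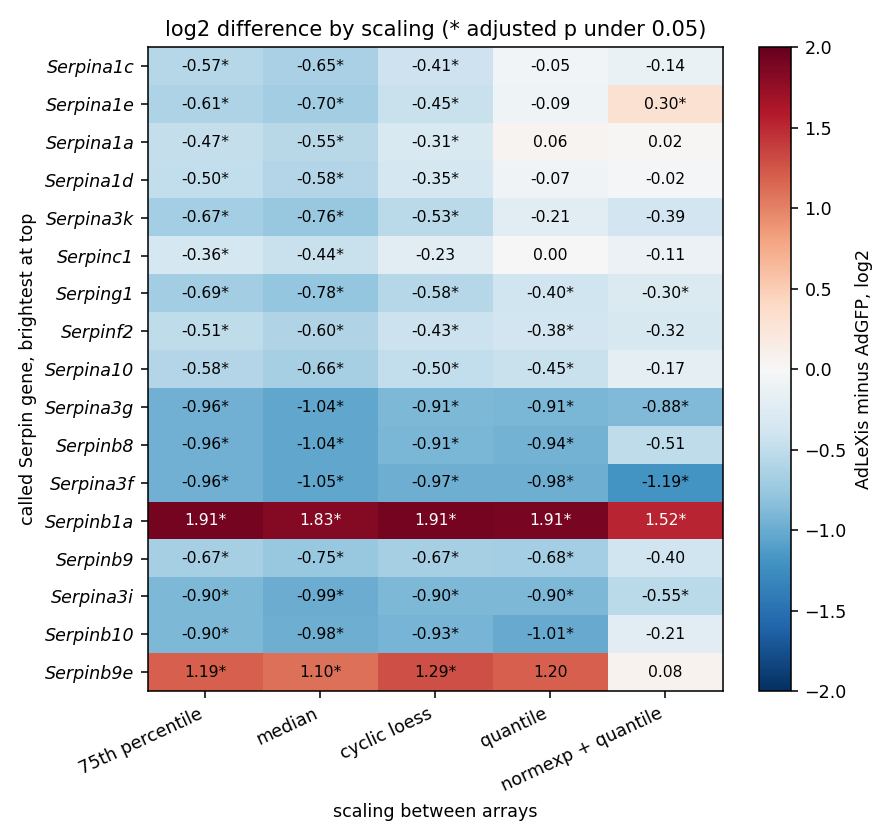
Log2 difference AdLeXis minus AdGFP of the 17 called Serpins (rows, brightest at top) under 5 scalings between arrays (columns), with colour and number giving the value and an asterisk an adjusted p under 0.05. The top 6 rows lose the asterisk under both quantile columns, except Serpina1e, which turns to 0.30 in the last one. The bright Serping1 keeps its asterisk in every column, as do Serpina3f, Serpina3g, Serpina3i and Serpinb1a.

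The 20 members that were not tested had no probe above background on 4 arrays. They were Serpina3a and Serpina3j of clade A; Serpinb1b, Serpinb1c, Serpinb2, Serpinb3a, Serpinb3b, Serpinb3d, Serpinb5, Serpinb6d, Serpinb6e, Serpinb7, Serpinb9b, Serpinb9c, Serpinb9d, Serpinb9g, Serpinb11, Serpinb12 and Serpinb13 of clade B; and Serpini2. The best probe was well above background on 1 array for Serpina3a, Serpinb6e, Serpinb7 and Serpinb12 and on 0 arrays for the other 16. Their levels are therefore bounded only from above in both groups, and no fold is given.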

How the data were processed

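RNA of 8 mouse liver samples (4 AdGFP, 4 AdLeXis) was read on 1-colour arrays. Per the file headers, the deposited files give linear spot intensity from Agilent Feature Extraction 11.5.1.1 (11.5.1.11 per the submitters' processing notes), background-subtracted within each array and not scaled between arrays, with probe coordinates of mm9. Everything else was computed here: log2 intensity was scaled on each array's 75th percentile, and control and outlier spots were left out (1 Serpin spot). Spots of a probe were averaged, a probe needed to be flagged above background on 4 arrays or more and to have a value on 2 or more per group, and the brightest kept probe represented a gene.

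Names were updated through a RefSeq table of GRCm38.p6 (27656 probes by accession, 3722 by symbol, 24303 unmatched), which changed no Serpin name. Groups were compared with limma 3.58.1 (R 4.3.3) in a model of group alone. Tests were two-sided, with p-values adjusted by Benjamini-Hochberg across 23893 genes. The fit was checked on simulated data. The alternatives were 4 scalings, the deposited value table, the dim-probe filter, the mean of probes, a variance trend, a replicate block and leaving out each array.

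Named genes were every Serpin but 1 that is counted and not reported here, with values on each array for called members, the Serpina1 and Serpina3 genes and the brightest of each clade, and up to 3 called genes of smallest p per list. Neutrophil proteases, C1s1 and C1s2 were named besides, chosen after their values were seen. The members, the 7 gene lists and the 7 marker lists were chosen with earlier results of these data known. For genes below background throughout a group, the fold is one of group means under the scaling used here, not a minimum over scalings. It is taken against the lowest signal well above background on each array, or the probe's own signal where higher.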

Additional observations from a re-analysis of the deposited data

Results flagged for a closer look

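Among the 41 tested Serpins, 1 array lay far from the other 3 of its group in 6 of 82 groups of 4 arrays (7.32%), by the gap to the nearest array over the group's range, against Dixon's 95% critical value. Chance flags about 1 group in 20. All 6 arrays were AdLeXis arrays. AdLeXis replicate 1 was high for Serpina1a (ratio 0.859, 18.25 against 18.08 for the nearest), Serpina1e (0.856, 18.21 against 18.10) and Serpinb9f (0.870, 5.44 against 4.04). AdLeXis replicate 2 was high for Serpinb6a (0.928, 11.62 against 11.39). AdLeXis replicate 3 was high for Serpina3f (0.892, 10.14 against 9.86), and AdLeXis replicate 4 was low for Serpinf2 (0.888, 14.86 against 15.21).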

How the results depend on the processing

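Precision is limited by the 4 arrays per group and, for dim probes, by signal near background. Over the 41 Serpins taken singly, 649 values under the 18 alternatives kept their direction and side of the threshold, 42 lost and 16 gained a call, and 29 changed sign. Serpin median differences were -0.44 under median scaling, -0.11 under quantile normalization, -0.25 under cyclic loess and -0.16 after normexp with quantile normalization. After normexp, 6 Serpins were lower. Fewer Serpins were higher than the 2 reported under quantile normalization, the filter on all 8 arrays, the variance trend and the replicate block (1 each). Over all genes, 1151 were higher under median scaling. With single arrays left out, 1 to 2 Serpins were higher and 11 to 16 lower, the Serpin median ran from -0.38 to -0.29, and 1247 to 2077 genes were higher and 1274 to 2030 lower over all. The counts over all genes moved by over 1.5 times without AdLeXis replicate 4 (1247 higher, 1274 lower), AdLeXis replicate 2 (1355 higher), AdGFP replicate 1 (1357 lower) and AdGFP replicate 2 (1390 lower). The cause was not tested, except that fewer arrays enter the last fits.

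Sign changes were as follows. Median scaling gave -0.047 for Serpina7 and -0.015 for Serpini1. Quantile normalization gave 0.055 for Serpina1a, 0.084 for Serpina11, 0.0013 for Serpinc1, 0.099 for Serpinf1 and -0.0091 for Serpini1. Cyclic loess gave 0.053 for Serpina11 and 0.020 for Serpinf1. Normexp gave 0.30 for Serpina1e, 0.024 for Serpina1a, 0.043 for Serpina3m, 0.14 for Serpina11, 0.12 for Serpinf1 and -0.012 for Serpini1. Leaving out single arrays turned the sign of uncalled genes only, with ranges of -0.10 to 0.060 for Serpina11, -0.29 to 0.21 for Serpina12, -0.16 to 0.025 for Serpina1f, -0.16 to 0.11 for Serpina3c, -0.0098 to 0.40 for Serpina5, -0.14 to 0.18 for Serpina7, -0.10 to 0.093 for Serpinb3c, -0.10 to 0.24 for Serpini1.

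Same-numbered arrays of the groups deviated together only weakly (correlations of 0.00045 to 0.12). AdLeXis replicates 2 and 3 matched the AdGFP array of their own number best, and replicates 1 and 4 did not. Weak correlations over all genes cannot decide whether the replicate numbers pair samples. With the replicate block 1517 genes were higher and 1626 lower, the Serpin median was -0.36, and 1 Serpin was higher and 15 lower. These were not the same genes: Serpinb9, Serpinb9e and Serpinc1 were no longer called, and Serpina3h (limma adjusted p = 0.0229) and Serpina9 (0.0366) were called lower. The value table held the same intensities and changed nothing. Without the dim-probe filter 13 Serpins were lower and 2 higher, and 1399 genes were higher and 1499 lower over all genes.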
